A study of Mus musculus with 35 samples.

Results

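Aortas of wild-type (WT) mice that had eaten a Western diet (WD) for 22 weeks were set against aortas of WT mice after 6 weeks on the same diet. Each group had 3 RNA-seq libraries, so 6 of the 35 libraries of the series were members, found by their titles. All mice were C57BL/6, began the diet (TD.88137) when 8 weeks old and were therefore 30 weeks old in the longer group and 14 weeks old in the shorter one. Age and time on diet cannot be told apart in this pair of groups. The wider study held 12 groups of WT mice, mice lacking apolipoprotein E (EKO) and EKO mice with surplus human apoA-I, on chow or WD. The question put to these 6 libraries was which genes differ between long and short exposure to a fat- and cholesterol-rich diet when apolipoprotein E is intact.

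The aortic wall has an inner endothelium, a media of contractile smooth muscle and an outer adventitia of fibroblasts, resident immune cells and small vessels, wrapped in fat that is brown-like around the thoracic part. Mice of this strain with intact apolipoprotein E clear remnant lipoproteins and are known to form few plaques on such a diet. Adipose tissue is known to release more leptin as fat stores grow. Per the labels, the vessel was taken from root to iliac fork with its outer fat dissected away, and blood was flushed out first.

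Smooth muscle markers were abundant in all 6 libraries. Myh11, the smooth muscle myosin heavy chain, ranged from 2110 to 7844 normalised units, and Acta2, smooth muscle actin, from 2965 to 9719. Fat RNA was also present, since Ucp1, the uncoupling protein of brown fat, lay between 1842 and 9750. Apoe checked the genotype and stood at 764, 804 and 540.4 in the 22-week aortas, against 815, 438 and 416 in the 6-week aortas (log2 fold change 0.39 ± 0.31, adjusted p = 0.435). Across the series Apoe ran from 416 to 1276 in WT libraries and from 5.37 to 29.7 in libraries of the EKO genotypes. The labels of 22-week replicate 3 disagree, with WT in the title and EKO in the genotype tag, and its Apoe of 540.4 lay in the WT range. Replicate 1 of both groups lacked Y-linked transcripts (mean 0.0819 at 22 weeks and 1.33 at 6 weeks) while the other 4 libraries held 46.4 to 60.5, so each group mixed the sexes in the same proportion. Across genes, the log2 values of 22-week replicate 3 correlated at 0.981 with 6-week replicates 2 and 3 each, and at 0.963 and 0.972 with 22-week replicates 1 and 2, so this library lay closer to 2 libraries of the other group than to its own.

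About 15050000, 17340000 and 9300000 reads stood behind the 22-week libraries and 6860000, 12390000 and 11400000 behind the 6-week libraries, as inferred from the smallest step between values. Values are normalised estimated read counts, which are not divided by gene length, so levels are compared between samples and not between genes. A change is the log2 fold change of value plus 1, 22 over 6 weeks, ± SE, with n = 3 in each group, and adjusted p is Benjamini-Hochberg over 14157 genes from limma. The labels do not say more about the origin of the replicates than 1 library each, so p-values measure the spread between libraries. That spread was pooled within groups over all 12 groups in 1 fit, so SE and p do not rest on these 6 libraries alone. In a fit of the 6 alone, 177 genes passed.

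Of the 14157 genes tested, 945 (6.68%) passed an adjusted p of 0.05, with 455 higher (3.21%) and 490 lower (3.46%) at 22 weeks. The median change of all genes was 0.02, and 33.3% of all genes had values in the 2 groups that did not overlap. The count rested on single libraries. It was 278 without 22-week replicate 1, 150 without 22-week replicate 2, 228 without 6-week replicate 1 and 550 without 6-week replicate 3. Among the 23 libraries with Y-linked transcripts, which leave 2 males in each of the compared groups, 69 genes passed. All 945 kept their direction there. Of these, 932 had groups apart, so leaving out libraries could not turn their sign. Groups apart thus go with nearly every call, and for the called genes below they describe the values and add no support.

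Brown fat markers separated the groups as well, and their values stand here for all results that follow. The mean log2 level of 12 brown adipocyte genes was 7.36, 6.68 and 7.46 in the 22-week aortas and 9.15, 8.1 and 8.36 in the 6-week aortas. With this level as a term in the fit, 15 genes passed, of which 7 were among the 945. All 945 kept their direction, and their median absolute change was 0.43 in place of 0.80. The groups did not overlap in brown fat level, so within these 6 libraries the share of fat and the time on diet cannot be told apart. Of 91 described genes that passed, Rspo4, Cpa3 and Gng7 passed with the term and 88 did not.

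**Figure D1:**
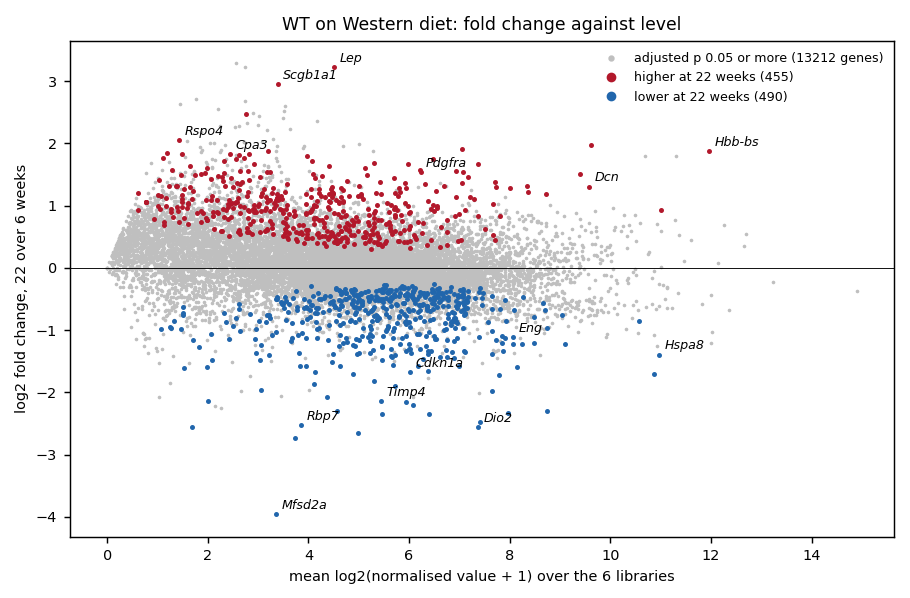
Log2 fold change (22 over 6 weeks) of each tested gene against its mean log2 level in the 6 WT aortas on WD. Red points are the 455 genes higher and blue points the 490 genes lower at 22 weeks with adjusted p under 0.05, and 14 genes are named. Lep lies at the top and Mfsd2a at the bottom of the called genes.

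Among genes past the threshold the largest rise belonged to Lep, which encodes leptin, the satiety hormone of adipocytes. Lep stood at 86.8, 63.2 and 59.4 in the 22-week aortas, against 2.12, 13.3 and 8.41 in the 6-week aortas (log2 fold change 3.22 ± 0.63, adjusted p = 0.00479). Every older library lay above every younger one, as its choice required. The other largest rises were of mixed origin. They held the airway secretory proteins Scgb1a1 and Bpifa1, the globins Hbb-bt and Hbb-bs with the erythroid haem enzyme Alas2, the T cell receptor chain Cd247 and the mast cell protease Cpa3. Rspo4, an R-spondin that strengthens Wnt signalling, had 5.89, 3.44 and 4.34 in the 22-week aortas, against 0, 0.664 and 0.374 in the 6-week aortas (log2 fold change 2.05 ± 0.38, adjusted p = 0.00321). Car12, a membrane carbonic anhydrase, had 1.83, 4.09 and 4.45 in the 22-week aortas, against 0.152, 0.083 and 0.374 in the 6-week aortas (log2 fold change 1.84 ± 0.33, adjusted p = 0.00307). Both are scarce transcripts, and groups apart was a condition of choice for all of the largest rises. Sphkap, an anchoring protein for protein kinase A, had 11.3, 24.3 and 16.4 in the 22-week aortas, against 2.12, 8.22 and 2.8 in the 6-week aortas (log2 fold change 1.87 ± 0.49, adjusted p = 0.026). Rab11fip4, an adaptor of recycling endosomes, had 4.13, 5.78 and 3.26 in the 22-week aortas, against 0.152, 0.664 and 0.748 in the 6-week aortas (log2 fold change 1.82 ± 0.51, adjusted p = 0.0338). With each of the 6 libraries left out in turn, Lep, Rspo4 and Car12 stayed past the threshold. Adjusted p rose above 0.05 without 22-week replicate 1 for Rab11fip4 (adjusted p 0.0834), without 22-week replicate 2 for Sphkap and Rab11fip4 (adjusted p 0.147 to 0.158), without 6-week replicate 1 for Sphkap and Rab11fip4 (adjusted p 0.14 to 0.145), without 6-week replicate 2 for Rab11fip4 (adjusted p 0.0553), without 6-week replicate 3 for Sphkap and Rab11fip4 (adjusted p 0.0587 to 0.0771).

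**Figure D2:**
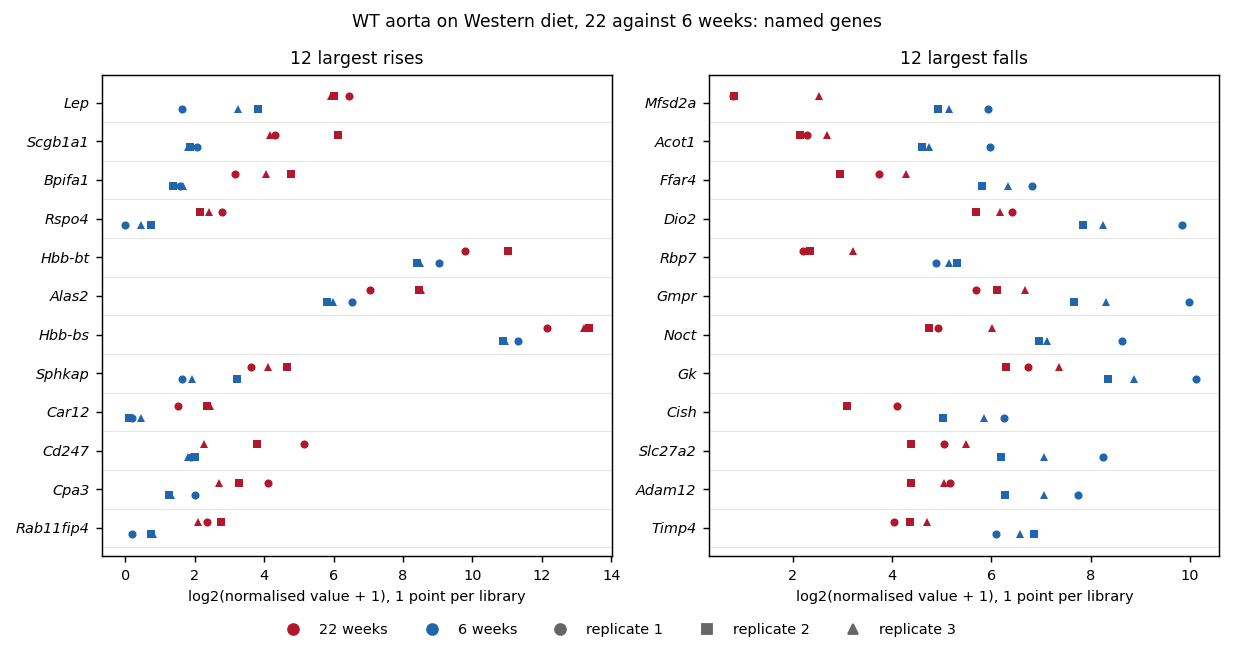
Log2(normalised value + 1) of the 12 named genes with the largest rises (left) and the 12 with the largest falls (right), 1 point per library, red for 22 weeks and blue for 6 weeks, with the shape giving the replicate number. No gene shown has overlapping groups, which was a condition for being shown. The 6-week replicate 1 is the highest point for every fall shown except Rbp7 and Timp4.

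Genes of heat-producing fat stood among the largest falls. Dio2, the deiodinase that activates thyroid hormone in brown fat, was 84.3, 50.5 and 71.5 in the 22-week aortas, against 924, 229 and 303 in the 6-week aortas (log2 fold change -2.56 ± 0.54, adjusted p = 0.00744). The 6-week replicate 1 stood far above the other 5 libraries. Gk, the glycerol kinase of brown fat, was 105, 77.1 and 163 in the 22-week aortas, against 1120, 327 and 469.9 in the 6-week aortas (log2 fold change -2.33 ± 0.53, adjusted p = 0.0121). Slc27a2, a fatty acid transporter and very-long-chain acyl-CoA synthetase, was 31.9, 19.7 and 44 in the 22-week aortas, against 305, 72.5 and 133 in the 6-week aortas (log2 fold change -2.21 ± 0.53, adjusted p = 0.0159). Kcnk3, a potassium channel of brown fat, was 151, 86.4 and 133 in the 22-week aortas, against 686, 264 and 351 in the 6-week aortas (log2 fold change -1.72 ± 0.43, adjusted p = 0.0206). The groups were apart for all of these, a condition of choice for Dio2, Gk and Slc27a2, with 6-week replicate 1 highest each time. These 4 were the members of the brown adipocyte list that fell, out of 12, and 11 of the 12 changes were negative with a median of -1.35. No brown adipocyte gene passed without 22-week replicate 2 or 6-week replicate 1, and 8 passed with the replicate block in the fit of the 6 libraries. Ucp1 itself did not pass, with 3487, 1842 and 3059 in the 22-week aortas, against 9750, 4360 and 5676 in the 6-week aortas (log2 fold change -1.21 ± 0.54, adjusted p = 0.156). The call ended without 22-week replicate 2 for Dio2, Gk, Slc27a2 and Kcnk3 (adjusted p 0.0542 to 0.127), and without 6-week replicate 1 for the same genes (adjusted p 0.0679 to 0.135). In bulk tissue, fewer cells of a type and less RNA per cell cannot be told apart.

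Several other large falls concern lipid handling. Mfsd2a, a lysophospholipid carrier, had 0.721, 0.764 and 4.78 in the 22-week aortas, against 59.9, 29.3 and 34.5 in the 6-week aortas (log2 fold change -3.96 ± 0.92, adjusted p = 0.0133), the largest fall among genes past the threshold. Ffar4, a receptor for long-chain fatty acids also known as GPR120, had 12.3, 6.76 and 18.5 in the 22-week aortas, against 111, 55.2 and 79.7 in the 6-week aortas (log2 fold change -2.66 ± 0.60, adjusted p = 0.0109). Acot1, an acyl-CoA thioesterase with a near-identical copy, had 3.85, 3.41 and 5.45 in the 22-week aortas, against 62, 23.1 and 25.9 in the 6-week aortas (log2 fold change -2.74 ± 0.79, adjusted p = 0.0382). All 3 were lower in each older library than in each younger one, as their choice required. Lpl, lipoprotein lipase, which frees fatty acids from circulating triglyceride, had 1135, 736 and 1340 in the 22-week aortas, against 8266, 1861 and 2499 in the 6-week aortas (log2 fold change -1.70 ± 0.51, adjusted p = 0.0444). Noct, nocturnin, a clock-controlled phosphatase of NADPH, had 29.2, 25.8 and 64 in the 22-week aortas, against 394, 124 and 139 in the 6-week aortas (log2 fold change -2.34 ± 0.56, adjusted p = 0.0155). Gmpr, a purine reductase, had 51, 68.7 and 102 in the 22-week aortas, against 1012, 201 and 316 in the 6-week aortas (log2 fold change -2.48 ± 0.72, adjusted p = 0.0382). As for Dio2, 6-week replicate 1 was far above the other libraries in Acot1, Gmpr, Noct and Lpl. Another 2 predicted transcripts with falls of this size are counted but not named. Significance was lost without 22-week replicate 1 for Mfsd2a, Acot1, Lpl, Noct and Gmpr (adjusted p 0.0607 to 0.122), without 22-week replicate 2 for Mfsd2a, Ffar4, Acot1, Lpl, Noct and Gmpr (adjusted p 0.0858 to 0.204), without 6-week replicate 1 for Mfsd2a, Ffar4, Acot1, Lpl, Noct and Gmpr (adjusted p 0.0678 to 0.286), without 6-week replicate 2 for Acot1 (adjusted p 0.0508), without 6-week replicate 3 for Acot1, Lpl and Gmpr (adjusted p 0.0581 to 0.0652).

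Among general adipocyte genes, Lep was the 1 of 12 that passed, while 6.68% of all genes passed. The other members leaned the other way, with 10 of 12 changes negative and a median of -0.61, against 0.48 with the brown fat term. Lep therefore differed in sign from most of the list it belongs to. The energy lists leaned like brown fat, and no member passed in the fit of all groups. With the replicate block in a fit of the 6 libraries, 4 genes of mitochondrial respiration, 5 of fatty acid oxidation and 5 general adipocyte genes passed as lower. All 24 genes of mitochondrial respiration had negative changes (median -0.58, 6 at an unadjusted p under 0.05 and 0 after adjustment in limma). The same held for 17 of 18 genes of fatty acid oxidation (median -0.65, 1 unadjusted, 0 adjusted). With the brown fat term these medians turned to 0.45 and 0.70.

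The remaining largest falls were of mixed function. Rbp7, a retinol-binding protein, had 3.6, 4.09 and 8.26 in the 22-week aortas, against 28.4, 38.9 and 34.5 in the 6-week aortas (log2 fold change -2.53 ± 0.56, adjusted p = 0.0105). Timp4, an inhibitor of metalloproteinases, had 15.5, 19.6 and 25.1 in the 22-week aortas, against 67.5, 116 and 94.8 in the 6-week aortas (log2 fold change -2.14 ± 0.34, adjusted p = 0.00273). Adam12, a membrane protease of the ADAM family, had 35.1, 19.8 and 32.1 in the 22-week aortas, against 215, 76 and 132 in the 6-week aortas (log2 fold change -2.16 ± 0.49, adjusted p = 0.0121). Cish, a feedback inhibitor of STAT5 signalling, had 16.1, 7.47 and 7.5 in the 22-week aortas, against 75.9, 31.8 and 56.8 in the 6-week aortas (log2 fold change -2.30 ± 0.70, adjusted p = 0.0476, 0.0509 with the replicate block). Groups were apart for each, as their choice required. Timp4 passed whichever of the 6 libraries was left out. The threshold was missed without 22-week replicate 1 for Rbp7 and Cish (adjusted p 0.0534 to 0.0697), without 22-week replicate 2 for Rbp7, Adam12 and Cish (adjusted p 0.0632 to 0.178), without 22-week replicate 3 for Cish (adjusted p 0.0971), without 6-week replicate 1 for Adam12 and Cish (adjusted p 0.0899 to 0.19), without 6-week replicate 3 for Cish (adjusted p 0.101).

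Endothelial genes were lower after 22 weeks. Of 15 markers, 8 fell and 14 had negative changes, with a median of -0.81 against 0.02 for all genes. The mean log2 level of the list was 6.44, 6.52 and 6.52 in the 22-week aortas and 7.08, 7.3 and 7.33 in the 6-week aortas, so the groups did not overlap and spanned little within themselves. Esam, an adhesion molecule of endothelial junctions, had 57, 68.6 and 64 in the 22-week aortas, against 99.7, 129.8 and 113 in the 6-week aortas (log2 fold change -0.84 ± 0.16, adjusted p = 0.00369). Eng, endoglin, a co-receptor for TGF-beta and BMP ligands, had 159.7, 188 and 200.3 in the 22-week aortas, against 355, 414 and 415 in the 6-week aortas (log2 fold change -1.11 ± 0.21, adjusted p = 0.004). Sox17, a transcription factor of arterial endothelium, had 13.8, 17.6 and 16.8 in the 22-week aortas, against 31.7, 43.5 and 40.1 in the 6-week aortas (log2 fold change -1.21 ± 0.25, adjusted p = 0.00654). Robo4, a guidance receptor that stabilises vessels, had 23.6, 26.5 and 41.5 in the 22-week aortas, against 65.1, 99.4 and 83.3 in the 6-week aortas (log2 fold change -1.43 ± 0.32, adjusted p = 0.0108). In none of the 4 did an older library reach a younger one. Vwf, von Willebrand factor, ran the other way with 367, 369 and 146 in the 22-week aortas, against 119.9, 163 and 235 in the 6-week aortas (log2 fold change 0.70 ± 0.40, adjusted p = 0.275), and its groups overlapped. The other 4 that fell, named after their values were seen, were the VEGF receptors Kdr and Flt1, the junction protein Cdh5 and the receptor Tie1. Kdr, for one, had 105, 94.8 and 192 in the 22-week aortas, against 346, 306 and 323 in the 6-week aortas (log2 fold change -1.38 ± 0.42, adjusted p = 0.0464, 0.0515 with the replicate block). With 1 library left out, 3 to 8 members passed, and 7 with the replicate block. The endothelial list median was -0.81 in males alone, where 1 member passed, and -0.58 with the brown fat term, where 0 passed. In the fit of the 6 libraries 6 members passed, and in that of the 12 WT libraries 0.

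Id1, an inhibitor of DNA binding that responds to BMP signals, had 23.1, 44.8 and 61.8 in the 22-week aortas, against 74.3, 121 and 114 in the 6-week aortas (log2 fold change -1.31 ± 0.30, adjusted p = 0.0128). It was the 1 member of the TGF-beta and BMP list of 18 that fell. Over all genes 3.46% fell and 3.21% rose. Tgfbi, a secreted matrix protein induced by TGF-beta, was the 1 that rose, with 435, 464 and 309.5 in the 22-week aortas, against 123, 151 and 234 in the 6-week aortas (log2 fold change 1.28 ± 0.28, adjusted p = 0.01). Klf4, a flow-sensitive transcription factor, had 57.2, 61.2 and 82.2 in the 22-week aortas, against 97.7, 124 and 132 in the 6-week aortas (log2 fold change -0.81 ± 0.23, adjusted p = 0.0345). Leaving out any single library kept Esam, Eng and Sox17 past the threshold. Several calls were not kept without 22-week replicate 1 for Robo4, Id1 and Klf4 (adjusted p 0.0583 to 0.122), without 22-week replicate 2 for Robo4, Tgfbi and Klf4 (adjusted p 0.068 to 0.149), without 6-week replicate 1 for Tgfbi and Klf4 (adjusted p 0.0592 to 0.0738), without 6-week replicate 2 for Klf4 (adjusted p 0.0769), without 6-week replicate 3 for Klf4 (adjusted p 0.0996).

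**Figure D3:**
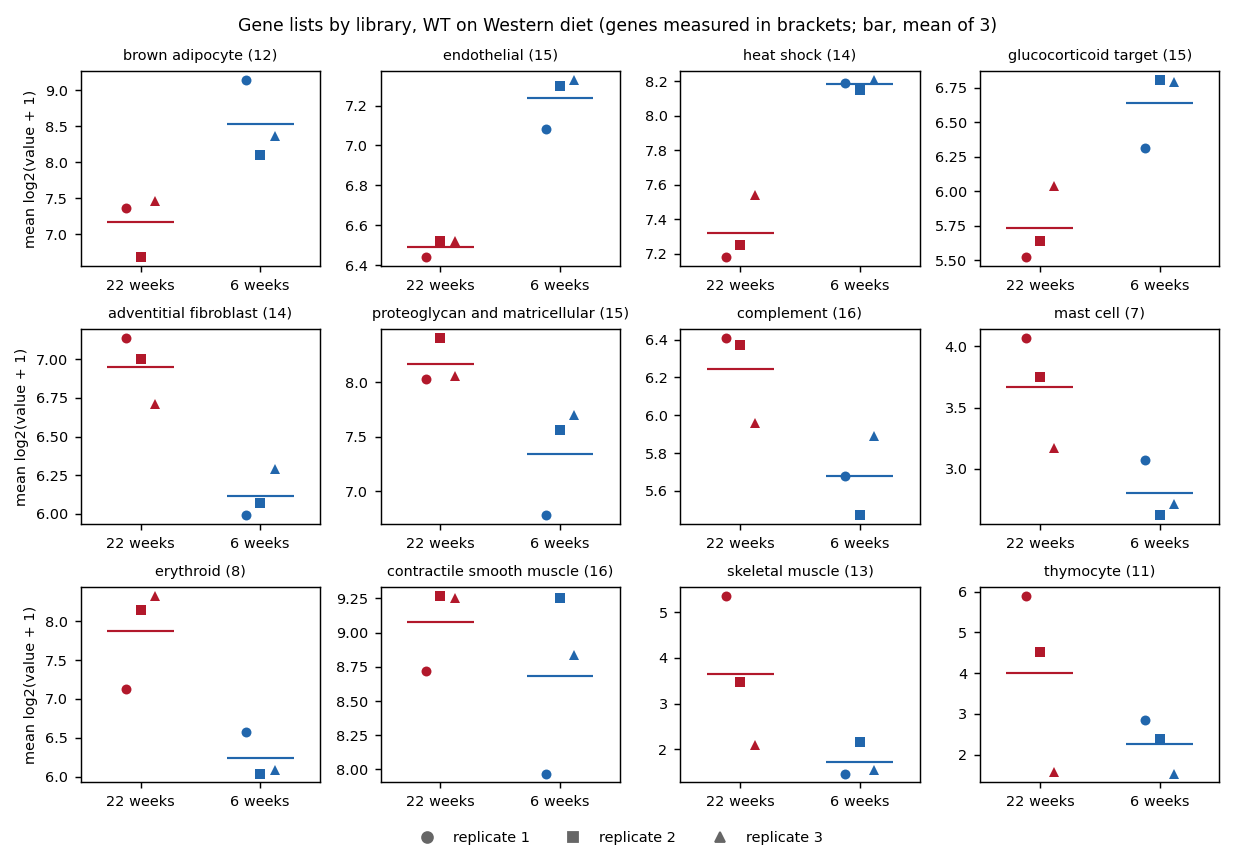
Mean log2(normalised value + 1) of the measured genes of 12 lists in each WT aorta on WD, 22 weeks left and 6 weeks right, with the replicate given by the shape and the mean of 3 by the bar. Brown adipocyte, endothelial, heat shock and glucocorticoid lists are lower in all 3 of the 22-week libraries, while skeletal muscle and thymocyte genes are spread widely within the 22-week group.

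Chaperones of the heat shock response were lower at 22 weeks. Heat shock factor binds inverted repeats of nGAAn in promoters of such genes and raises them when proteins unfold. Of 14 list members, 5 fell and 13 had negative changes, with a median of -0.89. The list level was 7.18, 7.25 and 7.54 in the 22-week aortas and 8.19, 8.15 and 8.21 in the 6-week aortas, with the younger libraries close together. Hspa8, the constitutive Hsc70 chaperone, had 1186, 1164 and 1373 in the 22-week aortas, against 4470, 2656 and 2917 in the 6-week aortas (log2 fold change -1.40 ± 0.34, adjusted p = 0.0184). Hsp90aa1 and Hsp90ab1 encode the cytosolic Hsp90 chaperones. Hsp90aa1 had 352, 347 and 378 in the 22-week aortas, against 1350, 597 and 723 in the 6-week aortas (log2 fold change -1.22 ± 0.33, adjusted p = 0.0299), and Hsp90ab1 had 1091, 1076 and 1192 in the 22-week aortas, against 2471, 1723 and 1943 in the 6-week aortas (log2 fold change -0.85 ± 0.21, adjusted p = 0.0172). Hspe1, the small subunit of the mitochondrial chaperonin, had 90.0, 71.2 and 96.2 in the 22-week aortas, against 360.2, 189 and 152 in the 6-week aortas (log2 fold change -1.35 ± 0.29, adjusted p = 0.00873). Dnaja1, a co-chaperone of Hsc70 named after its value was seen, had 163, 137 and 188 in the 22-week aortas, against 434, 291 and 355 in the 6-week aortas (log2 fold change -1.13 ± 0.35, adjusted p = 0.0489, 0.0538 with the replicate block). None of the older libraries reached a younger one in these 5 genes, as in 932 of the 945 genes called. Hspa1a, an inducible Hsp70 with a near-identical copy, had 26, 41.2 and 54 in the 22-week aortas, against 24.3, 81.8 and 80.4 in the 6-week aortas (log2 fold change -0.48 ± 0.87, adjusted p = 0.747), with overlapping groups. With 1 library left out, 0 to 4 members passed, and without 6-week replicate 1 or 22-week replicate 2 the count was 0. With the replicate block in the fit of the 6 libraries, 10 heat shock members passed.

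Promoter windows of Hspe1 and Dnaja1 are printed because the genes fell together and heat shock elements are textbook features of chaperone promoters. The windows (RefSeq, GRCm38.p6) run from 250 bases before to 50 after a gene start, 5′ to 3′ on the gene's strand, and capitals mark GAANNTTC or TTCNNGAA, searched on both strands, each of which reads the same on either strand. The Hspe1 window is chr1:55087898-55088197 (plus strand) and that of Dnaja1, 1 of 3 listed for the gene, is chr4:40722218-40722517 (plus strand).
Hspe1: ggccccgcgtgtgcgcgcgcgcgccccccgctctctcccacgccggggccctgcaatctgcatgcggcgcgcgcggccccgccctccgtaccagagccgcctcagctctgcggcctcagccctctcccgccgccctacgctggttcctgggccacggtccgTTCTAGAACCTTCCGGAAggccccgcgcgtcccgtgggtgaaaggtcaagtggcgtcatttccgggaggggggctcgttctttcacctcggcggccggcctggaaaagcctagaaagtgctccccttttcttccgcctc
Dnaja1: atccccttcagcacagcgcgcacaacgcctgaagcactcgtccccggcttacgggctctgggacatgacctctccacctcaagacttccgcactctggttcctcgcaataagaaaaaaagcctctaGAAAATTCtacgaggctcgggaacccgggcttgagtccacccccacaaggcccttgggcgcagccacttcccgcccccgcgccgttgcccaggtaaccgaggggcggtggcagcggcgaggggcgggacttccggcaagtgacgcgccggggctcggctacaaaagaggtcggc
Hspe1 held 3 overlapping matches in a single run and the printed Dnaja1 window held 1. Both other Dnaja1 windows held 0, so the window printed is the only one of that gene with a match. Of the 10 heat shock list genes with a window, 8 held GAANNTTC and 3 held TTCNNGAA, while 9.04% and 9.6% of all 27025 genes with a window did. Counted by window, 9 and 4 of the 15 windows of these genes held them, against 7.86% and 8.52% of all 32851 windows. Hspa8, Hsp90aa1 and Hsp90ab1 were among the 4 list genes with no window. A match describes letters and is not a bound site.

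Glucocorticoid targets fell in 4 of 15 cases, with 14 negative changes and a median of -0.79, and in 2 cases without 22-week replicate 1, 22-week replicate 2 or 6-week replicate 1. Sgk1, a kinase that controls ion transport, had 49.9, 61.8 and 123 in the 22-week aortas, against 194, 250 and 217 in the 6-week aortas (log2 fold change -1.58 ± 0.32, adjusted p = 0.00625). Cdkn1a, the p21 inhibitor of the cell cycle and also a p53 target, had 34.6, 28.8 and 43.6 in the 22-week aortas, against 127, 121 and 98 in the 6-week aortas (log2 fold change -1.68 ± 0.33, adjusted p = 0.00511). Metallothioneins, small zinc-binding proteins, followed, with Mt1 at 45.3, 52.9 and 55.8 in the 22-week aortas, against 153, 131 and 112 in the 6-week aortas (log2 fold change -1.34 ± 0.31, adjusted p = 0.0127) and Mt2 at 10.0, 17.3 and 13.8 in the 22-week aortas, against 47.2, 35.7 and 43.5 in the 6-week aortas (log2 fold change -1.57 ± 0.46, adjusted p = 0.0396). All 4 genes had groups that were apart, although 22-week replicate 3 sat above its group for Sgk1. Calls for Sgk1 and Cdkn1a held without each of the 6 libraries. Adjusted p rose above 0.05 without 22-week replicate 1 for Mt1 and Mt2 (adjusted p 0.0559 to 0.134), without 22-week replicate 2 for Mt1 and Mt2 (adjusted p 0.0542 to 0.1), without 22-week replicate 3 for Mt2 (adjusted p 0.0617), without 6-week replicate 1 for Mt1 and Mt2 (adjusted p 0.0698 to 0.144), without 6-week replicate 2 for Mt2 (adjusted p 0.0579), without 6-week replicate 3 for Mt2 (adjusted p 0.0867).

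The metallothionein windows are shown as those of a gene pair that fell together on 1 chromosome. Capitals mark the metal response core TGCACNC or TGCGCNC on either strand. The Mt1 window is chr8:94178839-94179138 and the Mt2 window chr8:94172368-94172667, both on the plus strand.
Mt1: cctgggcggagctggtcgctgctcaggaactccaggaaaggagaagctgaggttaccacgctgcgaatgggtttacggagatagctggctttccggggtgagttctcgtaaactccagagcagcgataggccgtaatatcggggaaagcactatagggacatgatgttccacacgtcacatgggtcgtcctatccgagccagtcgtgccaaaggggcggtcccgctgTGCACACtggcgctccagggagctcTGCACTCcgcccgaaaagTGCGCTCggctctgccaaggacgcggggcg
Mt2: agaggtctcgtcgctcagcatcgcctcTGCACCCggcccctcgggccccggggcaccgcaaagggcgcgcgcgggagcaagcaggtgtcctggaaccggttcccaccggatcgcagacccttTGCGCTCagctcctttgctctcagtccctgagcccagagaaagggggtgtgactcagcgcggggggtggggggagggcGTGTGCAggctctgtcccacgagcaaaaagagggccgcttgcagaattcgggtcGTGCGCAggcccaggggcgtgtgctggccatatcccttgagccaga
Mt1 held 3 matches and Mt2 held 4, and 25.7% of all windows held at least 1, so the core is common.

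Stress and clock lists had 1 or 2 members each that fell, while 3.46% of all genes fell. Of 22 immediate-early genes 2 fell, Cebpb and Klf4, while 12 had positive changes and the median was 0.12. Cebpb, a transcription factor, had 29.2, 21.6 and 39.9 in the 22-week aortas, against 99.99, 99.4 and 51.3 in the 6-week aortas (log2 fold change -1.42 ± 0.42, adjusted p = 0.0429, 0.0514 with the replicate block). Atf4, the transcription factor of the integrated stress response, was the 1 of 17 unfolded protein response genes that fell, in a list with 15 negative changes and a median of -0.16. It had 109, 117 and 129 in the 22-week aortas, against 168, 174 and 168 in the 6-week aortas (log2 fold change -0.53 ± 0.15, adjusted p = 0.0335). Txnrd1 and Gclm, redox enzymes driven by NRF2, were the 2 of 16 list members that fell. Txnrd1 had 90.8, 71.6 and 85.2 in the 22-week aortas, against 148, 99.7 and 136 in the 6-week aortas (log2 fold change -0.61 ± 0.14, adjusted p = 0.0137) and Gclm had 22.7, 27.9 and 28.4 in the 22-week aortas, against 47, 36.4 and 37.8 in the 6-week aortas (log2 fold change -0.60 ± 0.17, adjusted p = 0.0345). Of 20 clock genes, 2 fell, with a list median of -0.17. Usp2, a clock-controlled deubiquitinase, had 15.1, 11.6 and 18.4 in the 22-week aortas, against 40.1, 37.9 and 32.6 in the 6-week aortas (log2 fold change -1.26 ± 0.34, adjusted p = 0.0292), and Cry1, a repressor of the clock, had 9.5, 6.76 and 6.19 in the 22-week aortas, against 18.5, 19.3 and 16.1 in the 6-week aortas (log2 fold change -1.18 ± 0.35, adjusted p = 0.0441, 0.0513 with the replicate block). The call ended without 22-week replicate 1 for Cebpb, Atf4, Gclm, Usp2 and Cry1 (adjusted p 0.0672 to 0.134), without 22-week replicate 2 for Cebpb, Atf4, Txnrd1, Gclm, Usp2 and Cry1 (adjusted p 0.101 to 0.2), without 22-week replicate 3 for Cry1 (adjusted p 0.0971), without 6-week replicate 1 for Cebpb, Atf4, Txnrd1, Gclm, Usp2 and Cry1 (adjusted p 0.105 to 0.179), without 6-week replicate 2 for Cebpb, Atf4, Usp2 and Cry1 (adjusted p 0.0597 to 0.105), without 6-week replicate 3 for Atf4, Txnrd1, Gclm and Cry1 (adjusted p 0.0503 to 0.0731).

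Adventitial fibroblast genes were higher at 22 weeks. Of 14 markers, 7 rose and 12 had positive changes, with a median of 0.91 (0.65 with the brown fat term and 0.73 in males alone). With 1 library left out the number that rose was 1 to 7, with 3 without 22-week replicate 1, 1 without 22-week replicate 2 and 2 without 6-week replicate 1, and it was 0 in the fit of the 12 WT libraries. Pdgfra, the PDGF receptor of fibroblasts, had 154, 136 and 97.1 in the 22-week aortas, against 43.7, 36.7 and 49.5 in the 6-week aortas (log2 fold change 1.54 ± 0.26, adjusted p = 0.00286). Scara5, a ferritin receptor of adventitial progenitors, had 186, 182 and 123 in the 22-week aortas, against 54.2, 69.4 and 71.1 in the 6-week aortas (log2 fold change 1.31 ± 0.27, adjusted p = 0.00737). Cd248, endosialin, had 102, 108 and 81.2 in the 22-week aortas, against 29.6, 35.5 and 47.6 in the 6-week aortas (log2 fold change 1.36 ± 0.29, adjusted p = 0.00806). Serpinf1, the secreted factor PEDF, had 363, 387 and 259 in the 22-week aortas, against 96.7, 122 and 207 in the 6-week aortas (log2 fold change 1.29 ± 0.30, adjusted p = 0.0142). The groups were apart in all 4, and 22-week replicate 3 was the lowest of the older libraries in each. No single library was needed for the call of Pdgfra. Significance was lost without 22-week replicate 1 for Serpinf1 (adjusted p 0.0577), without 22-week replicate 2 for Scara5, Cd248 and Serpinf1 (adjusted p 0.0524 to 0.0907), without 6-week replicate 1 for Cd248 and Serpinf1 (adjusted p 0.055 to 0.105).

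Matrix genes leaned upward with them. All 15 proteoglycan and matricellular genes had positive changes and 4 rose, with a median of 0.68, which turned to -0.20 with the brown fat term. Of the proteoglycan and matricellular genes, 1 rose without 22-week replicate 2 or 6-week replicate 1, and 2 without 22-week replicate 1 or 6-week replicate 2. Dcn, decorin, which binds collagen fibrils and TGF-beta, had 1321, 1355 and 955 in the 22-week aortas, against 415, 452 and 601 in the 6-week aortas (log2 fold change 1.30 ± 0.26, adjusted p = 0.00526). Fmod, fibromodulin, had 115, 239 and 157 in the 22-week aortas, against 25.6, 47.3 and 88.9 in the 6-week aortas (log2 fold change 1.75 ± 0.47, adjusted p = 0.0285). Lum, lumican, had 308, 219 and 133 in the 22-week aortas, against 72.8, 42.6 and 111 in the 6-week aortas (log2 fold change 1.55 ± 0.42, adjusted p = 0.0297). Thbs2, an antiangiogenic thrombospondin, had 79, 91.5 and 85.4 in the 22-week aortas, against 24.9, 42.9 and 43.2 in the 6-week aortas (log2 fold change 1.22 ± 0.34, adjusted p = 0.0335). Every one of these was higher in each older library than in each younger one. With each of the 6 libraries left out in turn, Dcn stayed past the threshold. The threshold was missed without 22-week replicate 1 for Lum and Thbs2 (adjusted p 0.0746 to 0.124), without 22-week replicate 2 for Fmod, Lum and Thbs2 (adjusted p 0.12 to 0.159), without 22-week replicate 3 for Thbs2 (adjusted p 0.0546), without 6-week replicate 1 for Fmod, Lum and Thbs2 (adjusted p 0.0955 to 0.183), without 6-week replicate 2 for Fmod and Lum (adjusted p 0.0555 to 0.106).

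Collagen and elastic fibre genes leaned upward too, though few passed. Over all genes 3.21% rose and 3.46% fell. Of 17 collagen genes, 14 had positive changes with a median of 0.67, but Col14a1, a fibril-associated collagen, was the 1 that rose, with 416, 327 and 279 in the 22-week aortas, against 101, 127 and 166 in the 6-week aortas (log2 fold change 1.38 ± 0.32, adjusted p = 0.0128). Of 15 elastic fibre genes all had positive changes (median 0.65), and Mfap2 and Fbln1 rose. Mfap2, a microfibril protein, had 15.5, 15.4 and 11.7 in the 22-week aortas, against 6.98, 5.81 and 7.76 in the 6-week aortas (log2 fold change 0.95 ± 0.27, adjusted p = 0.0375). Fbln1, fibulin 1, had 268, 236 and 149 in the 22-week aortas, against 66.5, 73 and 111 in the 6-week aortas (log2 fold change 1.36 ± 0.41, adjusted p = 0.0458, 0.0548 with the replicate block). With the brown fat term these medians became -0.05 and -0.25, so the lean of both lists turned round under that term. Among collagen-processing genes, directions were split. Pcolce, which speeds procollagen cleavage, had 235, 259 and 169 in the 22-week aortas, against 70.9, 94.1 and 142 in the 6-week aortas (log2 fold change 1.138 ± 0.30, adjusted p = 0.0256). Plod1, a lysyl hydroxylase, had 87.3, 85.2 and 98.7 in the 22-week aortas, against 138, 164 and 174 in the 6-week aortas (log2 fold change -0.80 ± 0.16, adjusted p = 0.00473), and P4ha1, a prolyl hydroxylase, had 68.1, 72.9 and 75.9 in the 22-week aortas, against 167, 122 and 151 in the 6-week aortas (log2 fold change -0.996 ± 0.28, adjusted p = 0.036). Both hydroxylases were lower in every older library. Plod1 passed whichever of the 6 libraries was left out. Several calls were not kept without 22-week replicate 1 for Col14a1, Mfap2, Fbln1, Pcolce and P4ha1 (adjusted p 0.0647 to 0.145), without 22-week replicate 2 for Col14a1, Mfap2, Fbln1, Pcolce and P4ha1 (adjusted p 0.0561 to 0.171), without 22-week replicate 3 for P4ha1 (adjusted p 0.0517), without 6-week replicate 1 for Col14a1, Mfap2, Fbln1, Pcolce and P4ha1 (adjusted p 0.0842 to 0.18), without 6-week replicate 2 for Mfap2, Fbln1 and Pcolce (adjusted p 0.0551 to 0.0963), without 6-week replicate 3 for Mfap2, Fbln1 and P4ha1 (adjusted p 0.0507 to 0.0851).

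Proteases and secreted antagonists of growth signals followed the fibroblast genes. Mmp2 (gelatinase A) had 210.3, 139 and 96.1 in the 22-week aortas, against 51.3, 53.1 and 77.5 in the 6-week aortas (log2 fold change 1.23 ± 0.31, adjusted p = 0.0227), Mmp3 (stromelysin 1) had 99.4, 154 and 90.2 in the 22-week aortas, against 26.4, 26.9 and 56.7 in the 6-week aortas (log2 fold change 1.67 ± 0.44, adjusted p = 0.0275), and Adamts5, an aggrecanase, had 78.6, 91.6 and 92.9 in the 22-week aortas, against 47.3, 45.9 and 46.4 in the 6-week aortas (log2 fold change 0.90 ± 0.21, adjusted p = 0.0128). These 3 rose and Timp4 fell among 16 metalloproteinases and inhibitors. Hhip, a decoy receptor for hedgehog ligands, had 21.7, 43.5 and 23.9 in the 22-week aortas, against 4.1, 7.8 and 12.5 in the 6-week aortas (log2 fold change 1.79 ± 0.48, adjusted p = 0.0287). Sfrp2, a secreted Wnt modulator, had 250.3, 359 and 277 in the 22-week aortas, against 49.2, 123 and 126 in the 6-week aortas (log2 fold change 1.67 ± 0.49, adjusted p = 0.0396). These were the 2 of 18 Wnt and hedgehog genes that rose, and 17 of 18 had positive changes with a median of 0.75. The shares over all genes were 3.21% higher and 3.46% lower. With the replicate block in the fit of the 6 libraries, 6 Wnt and hedgehog genes rose. Adjusted p rose above 0.05 without 22-week replicate 1 for Mmp2, Mmp3, Hhip and Sfrp2 (adjusted p 0.0545 to 0.115), without 22-week replicate 2 for Adamts5, Mmp2, Mmp3, Hhip and Sfrp2 (adjusted p 0.0703 to 0.169), without 22-week replicate 3 for Sfrp2 (adjusted p 0.059), without 6-week replicate 1 for Mmp2, Mmp3, Hhip and Sfrp2 (adjusted p 0.108 to 0.224), without 6-week replicate 2 for Mmp2, Mmp3 and Hhip (adjusted p 0.0522 to 0.0729).

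Complement genes rose in 6 of 16 cases, with a median of 0.60 that was 0.78 with the brown fat term. It was 3 complement genes without 22-week replicate 1, and 2 without 22-week replicate 2 or 6-week replicate 1. The 3 with the smallest p act at the first step of the classical pathway. Serping1, the C1 inhibitor, had 509, 619.6 and 421 in the 22-week aortas, against 171, 182 and 277 in the 6-week aortas (log2 fold change 1.31 ± 0.26, adjusted p = 0.00511). C1s1 and C1ra encode proteases of the C1 complex. C1s1 had 239, 229 and 197 in the 22-week aortas, against 114, 119 and 139 in the 6-week aortas (log2 fold change 0.84 ± 0.18, adjusted p = 0.00823), and C1ra had 138, 149 and 111 in the 22-week aortas, against 54.2, 61.1 and 85.2 in the 6-week aortas (log2 fold change 0.99 ± 0.22, adjusted p = 0.01). The groups were apart in each. C1s1 and C1ra have close copies in the mouse genome, so the split of reads between copies is uncertain. Leaving out any single library kept Serping1 and C1s1 past the threshold. The call ended without 22-week replicate 2 for C1ra (adjusted p 0.0703), without 6-week replicate 1 for C1ra (adjusted p 0.0698).

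Mast cell proteases were higher. Of 7 measured mast cell markers 4 rose, all of them proteases (0 without 22-week replicate 1 and 1 without 22-week replicate 2). Cpa3, carboxypeptidase A3, had 16.2, 8.62 and 5.54 in the 22-week aortas, against 3.03, 1.41 and 1.5 in the 6-week aortas (log2 fold change 1.82 ± 0.37, adjusted p = 0.00629). Tpsb2, a tryptase, had 19.98, 14.8 and 6.52 in the 22-week aortas, against 3.79, 2.57 and 3.46 in the 6-week aortas (log2 fold change 1.68 ± 0.37, adjusted p = 0.0105). Mcpt4 and Cma1 are chymases. Mcpt4 had 23.7, 15.9 and 7.81 in the 22-week aortas, against 6.52, 3.24 and 3.64 in the 6-week aortas (log2 fold change 1.54 ± 0.35, adjusted p = 0.0128), and Cma1 had 20.2, 11.8 and 5.54 in the 22-week aortas, against 4.1, 1.25 and 2.99 in the 6-week aortas (log2 fold change 1.76 ± 0.47, adjusted p = 0.0275). In all 4 genes 22-week replicate 1 was highest and the groups were apart. Tryptases and chymases are families of similar genes, so reads may be split between members. The other 3 markers did not pass. Kit, the stem cell factor receptor, had 21.3, 19.6 and 16.8 in the 22-week aortas, against 8.35, 15.3 and 9.44 in the 6-week aortas (log2 fold change 0.79 ± 0.34, adjusted p = 0.143). Hdc, which makes histamine, had 3.54, 2.51 and 3.91 in the 22-week aortas, against 11.5, 5.64 and 5.23 in the 6-week aortas (log2 fold change -0.91 ± 0.43, adjusted p = 0.178), and the transcription factor Gata2 had 19.3, 32.1 and 17.9 in the 22-week aortas, against 32.2, 36.1 and 37.8 in the 6-week aortas (log2 fold change -0.64 ± 0.31, adjusted p = 0.198). Both of the last were lower in every older library than in every younger one. The groups were apart for all 7 measured markers, and the list was split in direction. Significance was lost without 22-week replicate 1 for Cpa3, Tpsb2, Mcpt4 and Cma1 (adjusted p 0.0516 to 0.13), without 22-week replicate 2 for Tpsb2, Mcpt4 and Cma1 (adjusted p 0.07 to 0.113), without 6-week replicate 2 for Cma1 (adjusted p 0.092), without 6-week replicate 3 for Cma1 (adjusted p 0.0504).

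The macrophage and foam cell lists had 1 member each past the threshold, while 3.21% of all genes rose and 3.46% fell. Of 18 macrophage markers, all had positive changes with a median of 0.35, and the 1 that rose was Csf1r, the receptor for colony stimulating factor 1, with 87, 89 and 50.7 in the 22-week aortas, against 33.2, 31 and 53.1 in the 6-week aortas (log2 fold change 0.93 ± 0.28, adjusted p = 0.0479, 0.0574 with the replicate block). Its groups overlapped, since 22-week replicate 3 lay below 6-week replicate 3. Among 17 foam cell genes Lpl was the 1 that passed, and it fell. The median of the foam cell list rested on single libraries, at -0.17 with all 6, 0.56 without 6-week replicate 3 and 0.14 without 22-week replicate 1. MHC class II, interferon and chemokine genes passed in 0 of 11, 0 of 21 and 0 of 24 cases in limma, with 0, 1 and 4 at an unadjusted p under 0.05. Of 30 lysosomal genes, 2 rose and 2 fell, and the median was 0.00. Glb1, beta-galactosidase, rose and had 34.5, 31.7 and 23.7 in the 22-week aortas, against 14.2, 21.1 and 23.6 in the 6-week aortas (log2 fold change 0.60 ± 0.18, adjusted p = 0.049, 0.055 with the replicate block). Of those that fell, Neu1, a sialidase, had 34.8, 29.4 and 28.3 in the 22-week aortas, against 40.4, 44.4 and 44.4 in the 6-week aortas (log2 fold change -0.47 ± 0.11, adjusted p = 0.0128), and Ctsz, cathepsin Z, had 292, 240.3 and 279.9 in the 22-week aortas, against 629.5, 366 and 437 in the 6-week aortas (log2 fold change -0.78 ± 0.21, adjusted p = 0.031). The threshold was missed without 22-week replicate 1 for Csf1r, Lpl, Glb1 and Ctsz (adjusted p 0.0647 to 0.169), without 22-week replicate 2 for Csf1r, Lpl, Glb1, Neu1 and Ctsz (adjusted p 0.0801 to 0.214), without 6-week replicate 1 for Csf1r, Lpl, Glb1 and Ctsz (adjusted p 0.183 to 0.287), without 6-week replicate 2 for Csf1r and Glb1 (adjusted p 0.0595 to 0.128), without 6-week replicate 3 for Lpl and Ctsz (adjusted p 0.054 to 0.0581).

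Red cell genes were higher at 22 weeks. Hbb-bs had 4529, 10510 and 9551 in the 22-week aortas, against 2521, 1871 and 1942 in the 6-week aortas (log2 fold change 1.88 ± 0.56, adjusted p = 0.0429, 0.0511 with the replicate block), and Hbb-bt had 878, 2070 and 2070 in the 22-week aortas, against 524, 335 and 355 in the 6-week aortas (log2 fold change 1.97 ± 0.58, adjusted p = 0.0418, 0.0501 with the replicate block). These beta globins are near-identical, so their reads cannot be split with certainty. Alas2, which starts haem synthesis in red cell precursors, had 131, 349 and 368 in the 22-week aortas, against 91.5, 54.8 and 62 in the 6-week aortas (log2 fold change 1.91 ± 0.56, adjusted p = 0.0421, 0.05 with the replicate block). Of the 8 measured erythroid markers 4 rose (1 with the replicate block), and all 8 changes were positive (median 1.79). The summed level of the list was 10300, 24160 and 20840 in the 22-week aortas and 5665, 4384 and 4471 in the 6-week aortas, and 22-week replicate 1 was the nearest to the younger group. Several calls were not kept without 22-week replicate 1 for Hbb-bs (adjusted p 0.0528), without 22-week replicate 2 for Hbb-bs, Hbb-bt and Alas2 (adjusted p 0.178 to 0.186), without 22-week replicate 3 for Hbb-bs, Hbb-bt and Alas2 (adjusted p 0.0929 to 0.105), without 6-week replicate 1 for Hbb-bs, Hbb-bt and Alas2 (adjusted p 0.0916 to 0.108), without 6-week replicate 2 for Hbb-bs, Hbb-bt and Alas2 (adjusted p 0.0883 to 0.0968), without 6-week replicate 3 for Hbb-bs, Hbb-bt and Alas2 (adjusted p 0.0951 to 0.0957). In all, 0 to 3 members passed with 1 library left out.

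Transcripts of neighbouring organs varied between libraries. Genes of skeletal muscle summed to 642, 158 and 60.0 in the 22-week aortas and 40.4, 62.6 and 42.5 in the 6-week aortas, and 0 of 13 passed in limma (0 at an unadjusted p under 0.05). Thymocyte genes, a list chosen after values were seen, summed to 1015, 394 and 99.7 in the 22-week aortas and 208, 124 and 101 in the 6-week aortas. In both, 22-week replicate 1 was highest and 22-week replicate 2 next, while replicate 3 was near the younger libraries. Rag1, the recombinase of developing lymphocytes, had 178, 64.5 and 0.76 in the 22-week aortas, against 8.65, 4.9 and 0.934 in the 6-week aortas. Cd247, the signalling chain of the T cell receptor, had 34.8, 12.9 and 3.8 in the 22-week aortas, against 2.71, 3.01 and 2.52 in the 6-week aortas (log2 fold change 1.84 ± 0.54, adjusted p = 0.0395) and was the 1 of 14 T and NK cell markers that passed. The share that passed over all genes was 6.68%. Cell cycle genes passed in 0 of 24 cases in limma, with 12 at an unadjusted p under 0.05. Their mean log2 level was 4.34, 3.23 and 2.13 in the 22-week aortas and 2.42, 2.43 and 2.36 in the 6-week aortas, so it too was high in 22-week replicate 1. Without 22-week replicate 3, 11 cell cycle genes (median 1.40) and 5 T cell and NK cell markers passed as higher. Airway genes, likewise chosen after values were seen, summed to 46, 120 and 44 in the 22-week aortas and 9.41, 7.98 and 7.69 in the 6-week aortas. Scgb1a1, the club cell protein, had 18.9, 69.2 and 16.8 in the 22-week aortas, against 3.19, 2.66 and 2.52 in the 6-week aortas (log2 fold change 2.95 ± 0.74, adjusted p = 0.0211), and Bpifa1 had 7.99, 26.4 and 15.8 in the 22-week aortas, against 1.97, 1.58 and 2.15 in the 6-week aortas (log2 fold change 2.47 ± 0.61, adjusted p = 0.0198). Scgb3a1 and Scgb3a2, further secretoglobins named after their values were seen, also rose, with Scgb3a1 at 2.23, 3.6 and 3.26 in the 22-week aortas, against 0.607, 0 and 0 in the 6-week aortas (log2 fold change 1.77 ± 0.36, adjusted p = 0.00625). The part of tissue carried along at dissection in these values was not tested. Adjusted p rose above 0.05 without 22-week replicate 1 for Cd247 (adjusted p 0.213), without 22-week replicate 2 for Cd247, Scgb1a1 and Bpifa1 (adjusted p 0.129 to 0.149), without 6-week replicate 1 for Cd247, Scgb1a1 and Bpifa1 (adjusted p 0.0678 to 0.125), without 6-week replicate 2 for Cd247 (adjusted p 0.0671), without 6-week replicate 3 for Cd247 and Scgb1a1 (adjusted p 0.0522 to 0.088).

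Smooth muscle genes gave no call. Of 16 contractile genes, 14 had positive changes with a median of 0.48, yet 0 passed in limma (0 at an unadjusted p under 0.05), and with the brown fat term the median turned to -0.67. Their summed level was 20730, 33280 and 30720 in the 22-week aortas and 10910, 28480 and 22000 in the 6-week aortas, with 6-week replicate 1 lowest. Without 6-week replicate 1 the median of the contractile smooth muscle genes was 0.04 and 9 of 16 changes were positive. Sterol synthesis (21 genes, median -0.08), ribosomal proteins (24 genes, median 0.01), glycolysis (18 genes, median -0.31) and fatty acid synthesis (16 genes, median -0.17) also had 0 members past the threshold in limma, with 0, 0, 3 and 4 at an unadjusted p under 0.05. Among 12 imprinted growth genes, Sgce, a sarcoglycan, rose and Igf2, the fetal growth factor, fell, while 3.21% of all genes rose and 3.46% fell. Sgce had 60.8, 68.1 and 62 in the 22-week aortas, against 31.3, 51.2 and 45.1 in the 6-week aortas (log2 fold change 0.60 ± 0.18, adjusted p = 0.0429), and Igf2 had 30.2, 25.4 and 32.1 in the 22-week aortas, against 35.6, 57.1 and 62.8 in the 6-week aortas (log2 fold change -0.77 ± 0.24, adjusted p = 0.049). The call ended without 22-week replicate 1 for Sgce and Igf2 (adjusted p 0.0874 to 0.102), without 22-week replicate 2 for Sgce and Igf2 (adjusted p 0.173 to 0.206), without 22-week replicate 3 for Sgce and Igf2 (adjusted p 0.0549 to 0.062), without 6-week replicate 1 for Sgce (adjusted p 0.268), without 6-week replicate 2 for Igf2 (adjusted p 0.118), without 6-week replicate 3 for Sgce and Igf2 (adjusted p 0.0642 to 0.162).

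Long genes leaned upward and short genes downward. Gene lengths (RefSeq, GRCm38.p6) were found for 13672 tested genes (96.6%). Genes that rose had a median length of 64083 bases and genes that fell 16157 bases, against 23836 bases for all. With genes cut into 5 equal bins of length, from shortest to longest, the median change was -0.06, -0.04, -0.01, 0.06 and 0.19. In the longest bin 7.5% rose and 1.46% fell, while in the shortest bin 1.9% rose and 4.2% fell. Spearman's rho of change and length across genes was 0.20, a description over genes that share libraries and depth. It was 0.16 with the brown fat term, -0.07 for WT on chow and -0.01 for EKO on WD over the same weeks. Per library, rho between length and the deviation from the mean of all 35 libraries was 0.05, 0.16 and 0.12 in the 22-week aortas and -0.12, -0.18 and -0.08 in the 6-week aortas. The part of depth or RNA quality was not tested.

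**Figure D4:**
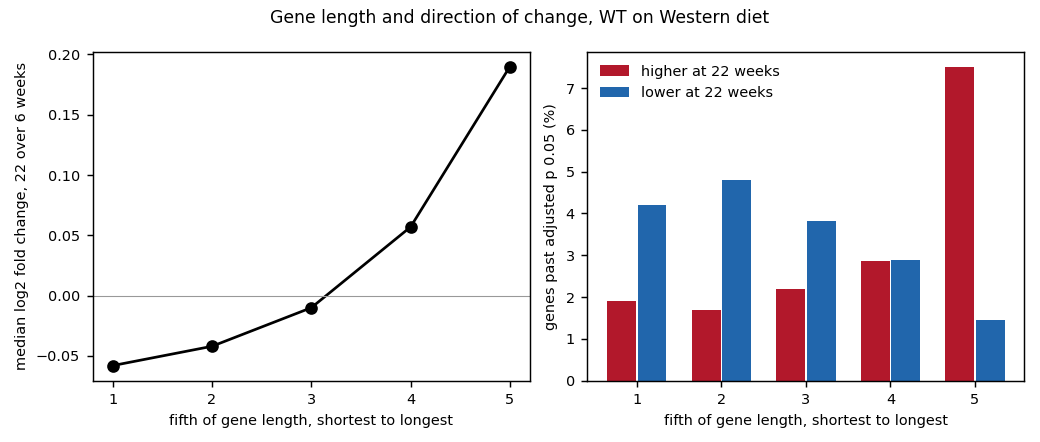
Left, the median log2 fold change (22 over 6 weeks, WT on WD) in 5 equal bins of gene length from shortest to longest. Right, the percentage of genes in each bin that were higher (red) or lower (blue) at 22 weeks with adjusted p under 0.05. The longest bin stands apart, with a median of 0.19 and 7.5% of genes higher.

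The design also asks whether time acted alike on chow. On chow, 17 genes (0.12%) passed between 22 and 6 weeks in WT, 5 higher (0.0353%) and 12 lower (0.0848%). The difference between the 2 changes, WD minus chow, passed for 1389 genes (9.81%), 696 positive (4.92%) and 693 negative (4.90%). Of the 945 genes called on WD, 842 (89.1%) had the opposite sign on chow, against 64.0% of all genes, and Pearson's r of the changes across genes was -0.37. The 2 comparisons share no library. Genes are not independent replicates, and this is a description. The counts without a library were 925 (22-week replicate 1), 751 (22-week replicate 2) and 774 (6-week replicate 1). With the brown fat term 1469 genes passed, of which 372 were among the 1389, so the number was close while most of the genes differed. The brown adipocyte list had a median change of 0.45 on chow, the opposite sign to WD, and with the brown fat term 1157 genes passed on chow. The 7 genes named for this difference all passed with the term and without any one of the 6 libraries.

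**Figure D5:**
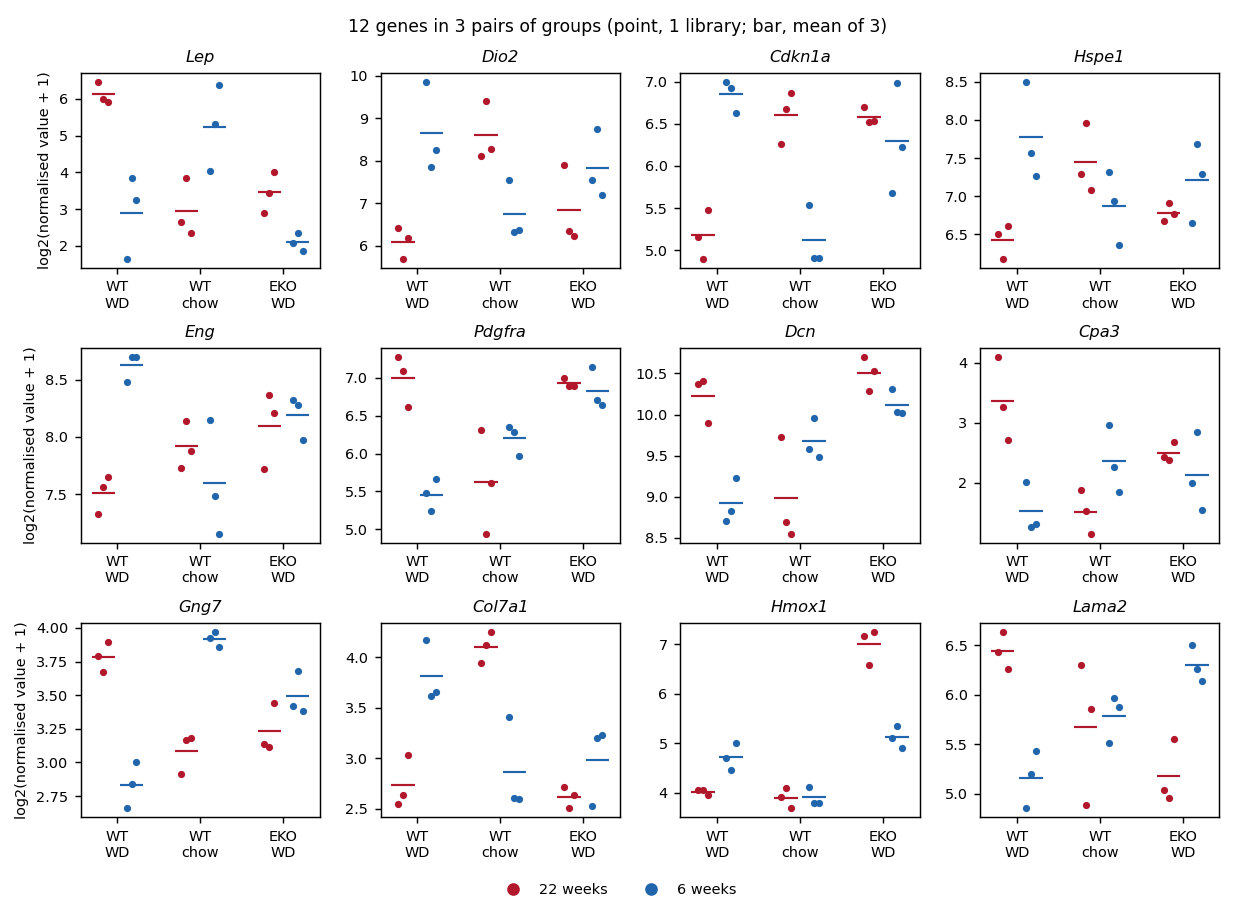
Log2(normalised value + 1) of 12 genes in WT on WD, WT on chow and EKO on WD, with 22 weeks (red) left of 6 weeks (blue) in each pair, 1 point per library and a bar at the mean of 3. Lep, Dio2, Cdkn1a, Gng7 and Col7a1 change in opposite directions on WD and on chow, and Hmox1 is high in EKO on WD at 22 weeks.

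Genes already described made up part of that difference. Lep on chow was 5.26, 13.5 and 4.11 at 22 weeks against 15.4, 38.8 and 82.6 at 6 weeks, the opposite order to WD (difference 5.51 ± 0.89, adjusted p = 0.000722). Cdkn1a on chow was 75.4, 102 and 116 at 22 weeks against 45.5, 29 and 29.1 at 6 weeks (difference -3.16 ± 0.47, adjusted p = 0.000448). Dio2 on chow was 275, 680 and 309 at 22 weeks against 186, 78.7 and 81.2 at 6 weeks (difference -4.41 ± 0.76, adjusted p = 0.00129). In each of these 3 genes the chow groups did not overlap and ran against those on WD, although none passed on chow (adjusted p 0.117, 0.0548 and 0.146). Of the lists, adventitial fibroblast genes passed with a positive difference in 9 of 14 cases, complement in 6 of 16 and erythroid in 6 of 8. Endothelial and heat shock genes passed with a negative one in 6 of 15 and 6 of 14.

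Genes with a positive difference from chow were chosen by smallest p and not by size. Those named were Gng7, a G protein subunit, Ptpn13, a protein tyrosine phosphatase, and Scaper, which binds cyclin A in the endoplasmic reticulum. Lep, at 5.51, had a larger difference. Gng7 on WD had 12.8, 11.8 and 13.9 in the 22-week aortas, against 5.31, 6.14 and 7.01 in the 6-week aortas, and on chow 6.55, 7.96 and 8.09 at 22 weeks against 14.2, 14.7 and 13.5 at 6 weeks (difference 1.79 ± 0.22, adjusted p = 0.00014). Ptpn13 on WD had 14.9, 12.4 and 13.6 in the 22-week aortas, against 7.89, 6.81 and 8.78 in the 6-week aortas, and on chow 10.1, 6.41 and 6.16 at 22 weeks against 15.4, 14.5 and 14 at 6 weeks (difference 1.63 ± 0.20, adjusted p = 0.00014). Scaper differed by 1.46 ± 0.20, adjusted p = 0.000293. The negative ones were Ccnl2, a cyclin of splicing bodies, the collagens Col7a1 and Col11a2, and Atp6v0b, a subunit of the vacuolar proton pump. Col7a1 on WD had 4.85, 5.24 and 7.17 in the 22-week aortas, against 17, 11.3 and 11.6 in the 6-week aortas, and on chow 14.4, 16.4 and 18.1 at 22 weeks against 9.59, 5.08 and 5.05 at 6 weeks (difference -2.31 ± 0.32, adjusted p = 0.000324). Ccnl2 differed by -1.19 ± 0.16, adjusted p = 0.000293, Col11a2 by -2.29 ± 0.33, adjusted p = 0.000346 and Atp6v0b by -1.12 ± 0.16, adjusted p = 0.000432. For all 7 genes the change on WD and on chow had opposite signs.

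Set against EKO mice on the same diet and times, 1223 genes (8.64%) changed differently, 392 with a more positive (2.77%) and 831 with a more negative (5.87%) change in WT. EKO on WD had 1903 genes past the threshold between 22 and 6 weeks (13.4%), 1482 higher (10.5%) and 421 lower (2.97%). The difference counted 786 genes without 22-week replicate 2, and the 8 genes named for it passed with the brown fat term and without any one of the 6 libraries. The genes with the smallest p and a more negative value in WT rose in EKO and did not pass in WT. Hmox1, the haem oxygenase of macrophages and stressed cells, had 15.7, 15.6 and 14.6 in the 22-week aortas, against 25, 21 and 31.3 in the 6-week aortas, while EKO on WD had 142, 94.7 and 152 at 22 weeks against 33.5, 39.8 and 29 at 6 weeks (difference -2.58 ± 0.32, adjusted p = 3.95e-05). Cemip, a hyaluronan-degrading protein, was at or below 0.71 in all 6 WT aortas and 74.9, 41.9 and 87.9 at 22 weeks against 1.53, 1.37 and 1.45 at 6 weeks in EKO (difference -4.82 ± 0.57, adjusted p = 3.39e-05). Vmp1, an autophagy protein, differed by -1.37 ± 0.16, adjusted p = 3.09e-05, and Prss46, a serine protease, by -2.96 ± 0.29, adjusted p = 1.61e-06. Their adjusted p over time in EKO was 1.38e-06 for Hmox1, 2.72e-08 for Cemip, 2.52e-07 for Vmp1 and 6.1e-09 for Prss46.

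The more positive ones were Abca8a, a lipid transporter, the basement membrane genes Col4a4 and Lama2, and F3, tissue factor. Abca8a had 245, 253 and 195 in the 22-week aortas, against 103, 91.1 and 126 in the 6-week aortas, while EKO on WD had 109, 105 and 108 at 22 weeks against 265, 181 and 184 at 6 weeks (difference 2.05 ± 0.29, adjusted p = 8.57e-05). Lama2, the laminin alpha 2 chain, had 85.2, 98.6 and 75.8 in the 22-week aortas, against 27.9, 35.8 and 42.1 in the 6-week aortas, while EKO on WD had 31.9, 30.1 and 45.9 at 22 weeks against 89.8, 75.6 and 69.6 at 6 weeks (difference 2.40 ± 0.38, adjusted p = 0.000243). Col4a4 differed by 2.87 ± 0.44, adjusted p = 0.000216, and F3 by 2.21 ± 0.36, adjusted p = 0.000305. These 4 genes rose over time in WT and fell in EKO, with adjusted p for EKO of 0.00194, 0.00456, 0.000602 and 0.000869 in the order Abca8a, Lama2, Col4a4 and F3. By list, 24 of 30 lysosomal genes and 10 of 18 macrophage genes passed with the more negative change in WT, and 9 of 14 adventitial fibroblast genes the more positive one. Cdkn1a and Sgk1 also differed, by -1.96 ± 0.47, adjusted p = 0.00839 and -2.19 ± 0.46, adjusted p = 0.00297, and each fell in WT and did not pass in EKO (adjusted p 0.643 and 0.24).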

How the data were processed

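RNA-seq of mouse aortas was read from the authors' deposited table of 14174 genes by 35 libraries, each of which matched 1 sample title. The deposited values are a signal: estimated read counts per gene that the authors had normalised between libraries, inferred from the values, because no header states the steps. Low values are whole multiples of a step for 71.6% to 81.5% of cases per library (within 0.02 reads), and that step gave depths of 6860000 to 25330000 reads. The submitters' processing notes name Bowtie 0.12.2, Bowtie2, RSEM and the builds mm8 and mm9 without a role for each. An estimated count that need not be whole and is already scaled does not suit a count test, so limma 3.58.1 (R 4.3.3) was fitted to log2(value + 1) with an intensity trend and robust moderation. All 12 groups shared 1 fit with no covariate. It covered 14157 genes that reached 1 in 3 or more libraries, 17 being removed, and used two-sided Benjamini-Hochberg adjusted p under 0.05. On this scale the fold change of low genes is understated.

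Apoe was described first, then the 12 largest rises and 12 largest falls among genes past the threshold with groups apart and a mean log2 level of at least 1. Predicted genes and receptor segments were counted but not named, which left 19 of 925 eligible genes without a name. Up to 4 members past the threshold with the smallest p were taken from each gene list, and up to 4 genes per direction from the 2 tests of a difference. A few genes this rule chose are not reported here, though they stay in all counts over genes and lists. Members and lists were chosen with earlier results of these data known. The airway and thymocyte lists were chosen after values were seen. Lists are described by counts and medians, with no set test.

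Replicate numbers come from the titles, and no label says what they pair. Deviations from the group mean correlated at 0.339, 0.32 and 0.132 between same-numbered libraries of WT on WD. Differently numbered ones gave -0.29 to 0.072. In EKO on WD, same-numbered libraries gave 0.367, 0.439 and 0.122, and differently numbered ones -0.388 to 0.058. In both genotypes on WD every same-numbered pair thus lay above the others. This did not hold on chow, where same-numbered WT libraries gave -0.016, 0.165 and 0.34, and differently numbered ones reached 0.29. Replicate 1 lacked Y-linked transcripts in both WT groups on WD, and the part of sex in these correlations was not tested. These values do not settle whether the numbers pair the samples. The main fit has no block, and a replicate block was tried as an alternative. Other alternatives were fits of 6 or 12 libraries, other pseudocounts, no filter, median-ratio scaling, no trend, sex and tissue terms, and each of the 6 libraries left out. The fit was tested on simulated data with known changes. Gene lengths and promoter windows came from RefSeq (GRCm38.p6), and symbols were matched by name.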

Additional observations from a re-analysis of the deposited data

Results flagged for a closer look

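The change over time on WD differed from that on chow in WT for 1389 genes by the test of the difference in limma. Named cases were Gng7 (1.79), Ptpn13 (1.63) and Scaper (1.46) with a positive difference, and Ccnl2 (-1.19), Col7a1 (-2.31), Col11a2 (-2.29) and Atp6v0b (-1.12) with a negative one, all on the log2 scale. The leading members of the gene lists differed too. Lep (5.51), Pdgfra (2.12), Dcn (1.99), Serping1 (2.00), Cpa3 (2.66) and Hbb-bt (3.88) had positive differences. Dio2 (-4.41), Esam (-0.97), Hspe1 (-1.92) and Cdkn1a (-3.16) had negative ones.

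Between WT and EKO on WD the change over time differed for 1223 genes. Abca8a (2.05), Col4a4 (2.87), Lama2 (2.40) and F3 (2.21) were more positive in WT. Hmox1 (-2.58), Prss46 (-2.96), Vmp1 (-1.37) and Cemip (-4.82) were more negative in WT.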

How the results depend on the processing

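The number of genes past the threshold between 22 and 6 weeks was 945. It was 177 with the 6 compared libraries alone (160 among the 945), 26 with the 12 WT libraries (25 among them), 15 with a brown fat term, 1 with brown fat and skeletal muscle terms, 11 with 4 tissue terms, and 69 with male libraries alone, a choice made after seeing the data. With 1 library left out it ran from 150 to 1028. Other pseudocounts, no filter, median-ratio scaling, a sex term and no trend gave 894 to 1013. With the replicate block, which pairs same-numbered libraries, it was 904, of which 854 were among the 945, and 1146 in the 6-library fit, of which 502 were. Among the 91 named genes that passed, the paired 12-group fit ended the calls of 9, given beside their values. Of the 91, the call held for 37 in the 6-library fit, 12 in the 12-library fit and 18 in males.

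The difference from chow counted 1389 genes, 328 with the 12 WT libraries, 583 with 4 tissue terms, 716 with males alone and 751 to 1524 with 1 library left out. The difference from EKO counted 1223 genes, 545 with males alone and 786 to 1296 with 1 library left out. The change of Cemip in WT, which did not pass, was -0.0619 and turned to 0.0526 with males alone, and ran from -0.304 to 0.0823 with 1 library left out. The cause of these shifts was not tested. Cemip and Prss46 lie near the level of a few reads in WT, where the depth limits what can be measured.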
